A study of Mus musculus with 4 samples.

Results

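Genes for making cholesterol and fatty acids were compared in mouse embryonic stem cells (ESCs) kept in serum or in 2i conditions. The group was set by name, as 34 enzymes, sensors and regulators of both pathways, and 33 of them were among the 14533 genes of the deposited RNA table. Hmgcs1, the enzyme that makes HMG-CoA, had no match by name in the mm9 annotation used here and has no value below. The 33 genes comprised 6 of the mevalonate steps, 11 of the sterol steps from squalene onward, 6 for sterol sensing and transport, and 10 for fatty acid synthesis and desaturation.

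Serum ESCs grew in medium with fetal calf serum and the cytokine LIF. Their 2i counterparts grew in serum-free Ndiff 227 medium with LIF and 2 kinase inhibitors, namely CHIR99021, which blocks GSK3, and PD0325901, which blocks MEK. Both cultures had been adapted for over 20 days, and per the labels the sorted cells were in late G1-phase, although the series description names early G1-phase. There were 2 libraries of ribosome-depleted total RNA for each condition, 4 in all, and the labels name no cell line.

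Cholesterol is built from acetyl-CoA through mevalonate, farnesyl diphosphate, squalene and lanosterol, while fatty acids are built from the same acetyl-CoA by carboxylation, chain synthesis, elongation and desaturation. Both routes are governed by the SREBP transcription factors, which stay in the endoplasmic reticulum with SCAP and INSIG while sterols are plentiful and are released to the nucleus when sterols run low. Serum carries lipoproteins and fatty acids that cells can take up, so the comparison sets cells given serum beside cells grown without it.

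The libraries held between 18939401 and 26570098 reads in genes. The protein-coding share of reads was 46.9% in serum replicate 1 and 76.3% in serum replicate 2, beside 57.8% in 2i replicate 1 and 66.3% in 2i replicate 2. Replicates lay far apart: over the 13005 genes tested, replicates differed by 0.53 in serum and by 0.76 in 2i as a median absolute log2 difference. The condition means, each over 2 libraries, differed by a median of 0.55. Means vary less than single libraries, so these values are not on an equal footing. ESC markers were abundant throughout, since the 11 of 12 listed markers that were in the table summed to normalized counts of 55123 and 74369 in serum against 65346 and 83774 in 2i. Primitive endoderm markers, of which 6 of 10 were in the table, summed to 1459 and 2375 in serum against 1855 and 1689 in 2i, mostly through the laminin gene Lama1. Within that list the transcription factor Gata4 stood at 13.0 and 42.8 in serum against 152 and 169 in 2i. Gata6 was at 5 and 16.5 in serum against 87.2 and 27.2 in 2i. Sox17 was at 7 and 7.78 in serum against 33.2 and 33 in 2i. For each of these factors both 2i libraries were above both serum libraries, at low counts. Lama1, Pdgfra (47 and 41.8 in serum, 60.2 and 27.2 in 2i) and Cubn (3 and 46.7 in serum, 5.19 and 0 in 2i) overlapped. The 3 of 9 fibroblast markers in the table summed to 304 and 239 in serum against 427 and 136 in 2i. Markers of mesoderm or neural cells, 5 of 8 in the table, summed to 1072 and 654 in serum against 686 and 952 in 2i. The part of other cell types in the results below was not tested, and in bulk RNA fewer cells of a type and less RNA per cell cannot be told apart.

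The promoters of these genes shared short sequence features. At least 1 promoter window of 300 bases around a start was found by symbol for 27 of the 34 genes in the RefSeq table (build GRCm38.p6, which is not the build of the expression data). Pmvk, Scap, Dhcr7, Insig2 and Srebf1 had 2 or 3 windows each, and a gene is counted below where any of its windows held the letters. Searched on both strands, the CCAAT box (letters CCAAT, bound by NF-Y) was found for 22 of 27 genes (81.5%), against 44.1% of the 8509 tested genes with a promoter and 41.1% of all 27025 genes with a promoter. The Sp1 box (GGGCGG) was also found for 22 of 27 (81.5%), against 70.7% of the tested genes with a promoter. All 9 sterol step genes with a promoter had a match to each of the 2 in at least 1 window, although for Dhcr7 only 1 of 3 windows held CCAAT, while among the 7 fatty acid genes with a promoter 4 had the CCAAT box and 3 the Sp1 box. The E-box (CACGTG) was found for 6 of 27 (22.2%, against 12.4%). The sterol regulatory element (TCACNCCAC) was found for 1 of 27 (3.7%, against 1.44% of all genes with a promoter), which was the promoter of Hmgcs1. For the others this says only that these letters are not in the window. Hmgcs1 was not tested, and for the 26 members that were tested and had a promoter the count was 0, against 1.41% of the tested genes. Over those 26 the shares were 80.8% for the CCAAT box, 80.8% for the Sp1 box and 23.1% for the E-box. The 4 windows below are shown because they belong to an early enzyme, to the gene with the largest difference between the conditions, to the sterol step with the largest difference between the serum libraries, and to a sensor. They are written 5′ to 3′ on the strand of the gene, with CCAAT on either strand in capitals.
Mvk promoter, chr5:114444019-114444318, strand +: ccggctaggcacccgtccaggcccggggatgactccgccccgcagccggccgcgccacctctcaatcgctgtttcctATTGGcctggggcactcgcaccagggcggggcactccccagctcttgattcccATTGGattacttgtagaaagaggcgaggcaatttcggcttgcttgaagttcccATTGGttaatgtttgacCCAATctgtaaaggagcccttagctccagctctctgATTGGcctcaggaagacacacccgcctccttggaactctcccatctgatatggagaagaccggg
Sc4mol promoter, chr8:64733529-64733828, strand -: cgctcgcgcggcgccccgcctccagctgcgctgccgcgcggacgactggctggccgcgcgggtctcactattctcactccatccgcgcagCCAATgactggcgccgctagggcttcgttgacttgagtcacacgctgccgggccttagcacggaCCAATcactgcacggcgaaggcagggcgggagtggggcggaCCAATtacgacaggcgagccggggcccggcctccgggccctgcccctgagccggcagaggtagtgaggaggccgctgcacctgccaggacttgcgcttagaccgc
Tm7sf2 promoter, chr19:6067801-6068100, strand -: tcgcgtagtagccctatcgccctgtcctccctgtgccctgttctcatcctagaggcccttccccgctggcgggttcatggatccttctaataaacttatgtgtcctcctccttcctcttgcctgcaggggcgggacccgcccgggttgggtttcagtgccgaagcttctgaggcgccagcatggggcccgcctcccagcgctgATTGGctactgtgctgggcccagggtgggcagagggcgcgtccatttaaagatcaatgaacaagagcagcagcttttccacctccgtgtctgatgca
Insig1 promoter, chr5:28071162-28071461, strand +: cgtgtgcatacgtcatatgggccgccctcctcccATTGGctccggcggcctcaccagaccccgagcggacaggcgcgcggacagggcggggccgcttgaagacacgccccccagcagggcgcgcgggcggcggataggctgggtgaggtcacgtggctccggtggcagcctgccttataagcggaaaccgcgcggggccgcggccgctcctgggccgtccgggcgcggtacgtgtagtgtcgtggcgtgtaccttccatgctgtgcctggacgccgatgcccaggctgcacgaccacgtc
A match is a description of letters in the window and not a measured binding site. Mvk held 5 CCAAT boxes, Sc4mol held 3, and Tm7sf2 and Insig1 each held 1.

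Levels between genes were compared per kilobase of the longest transcript, as means over the 4 libraries. The highest was Scd2, a stearoyl-CoA desaturase, at 2840 normalized counts per kilobase. Fdps, which makes farnesyl diphosphate, came next at 2430, followed by the sterol sensor Insig1 at 1910 and by ATP-citrate lyase, Acly, at 1720. This order was not the same in every library, since in 2i replicate 2 Fdps (5080) and Insig1 (3700) were above Scd2 (2870). At the other end were the ketoreductase Hsd17b7 at 81.0 and the acetyl-CoA synthetase Acss2 at 85.2. Every measured member was expressed in all 4 libraries, with a lowest normalized count of 80.7.

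For the comparison of serum with 2i, log2 fold changes are serum over 2i on the scale of log2(normalized count + 1), so negative values mean higher levels in 2i. No member was called by limma at a Benjamini-Hochberg adjusted p-value under 0.05 with a 2-fold change, and the smallest adjusted p-value among the 33 was 0.753. Over all 13005 genes tested this rule called 0% as higher in serum and 0.0154% as higher in 2i. DESeq2 on the recovered whole reads also called 0 members, where it called 0.561% of all genes as higher in serum and 1.37% as higher in 2i. At an unadjusted limma p-value under 0.05 with a 2-fold change, 0 members were higher in serum, with 2.97% of all genes, and 2 members were higher in 2i, with 3% of all genes. Standard errors of the members ran from 0.42 to 0.77 on the log2 scale. As a result, 0 of the 33 intervals of 95% lay wholly within a 2-fold change in either direction. The narrowest, that of Acaca, ran from -0.44 to 1.58, wider than the span from 2-fold lower to 2-fold higher. No member's interval could thus lie within that span, so the data cannot show equal levels either. The 95% interval excluded a 2-fold higher level in serum for 15 members and a 2-fold higher level in 2i for 7. With intervals this wide, only members below 0 could be among the 15 and only members above 0 among the 7. These counts therefore add little to the signs of the estimates, and their shares over all genes were not counted. The labels do not say whether replicates came from separate cultures, so these p-values rest on the spread between the libraries at hand. In limma the variance of each gene is also drawn towards a trend over all genes tested. The SE of a gene is thus not a measure of its own replicates alone.

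The 33 genes tended towards higher levels in 2i, with 25 of 33 below 0 (75.8%, against 49.7% of all genes tested) and a median of -0.32, against 0.0047 over all genes tested. Both serum libraries lay below both 2i libraries for 7 members, Tm7sf2, Sc4mol, Nsdhl, Srebf1, Acss2, Scd1 and Fads1, which is 7 of 33 where the same holds for 19.4% of all genes. Acaca alone of the 33 had both serum libraries above both 2i libraries, which holds for 20.5% of all genes, and the libraries of the other 25 members overlapped. Without serum replicate 2 the median was 0.071, with 14 of 33 below 0, and all 4 group medians were above 0, so the tendency did not hold without that library. Leaving out a 2i library also turned 2 of the group medians, that of sensing and transport without 2i replicate 1 and that of the mevalonate steps without 2i replicate 2.

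**Figure D1:**
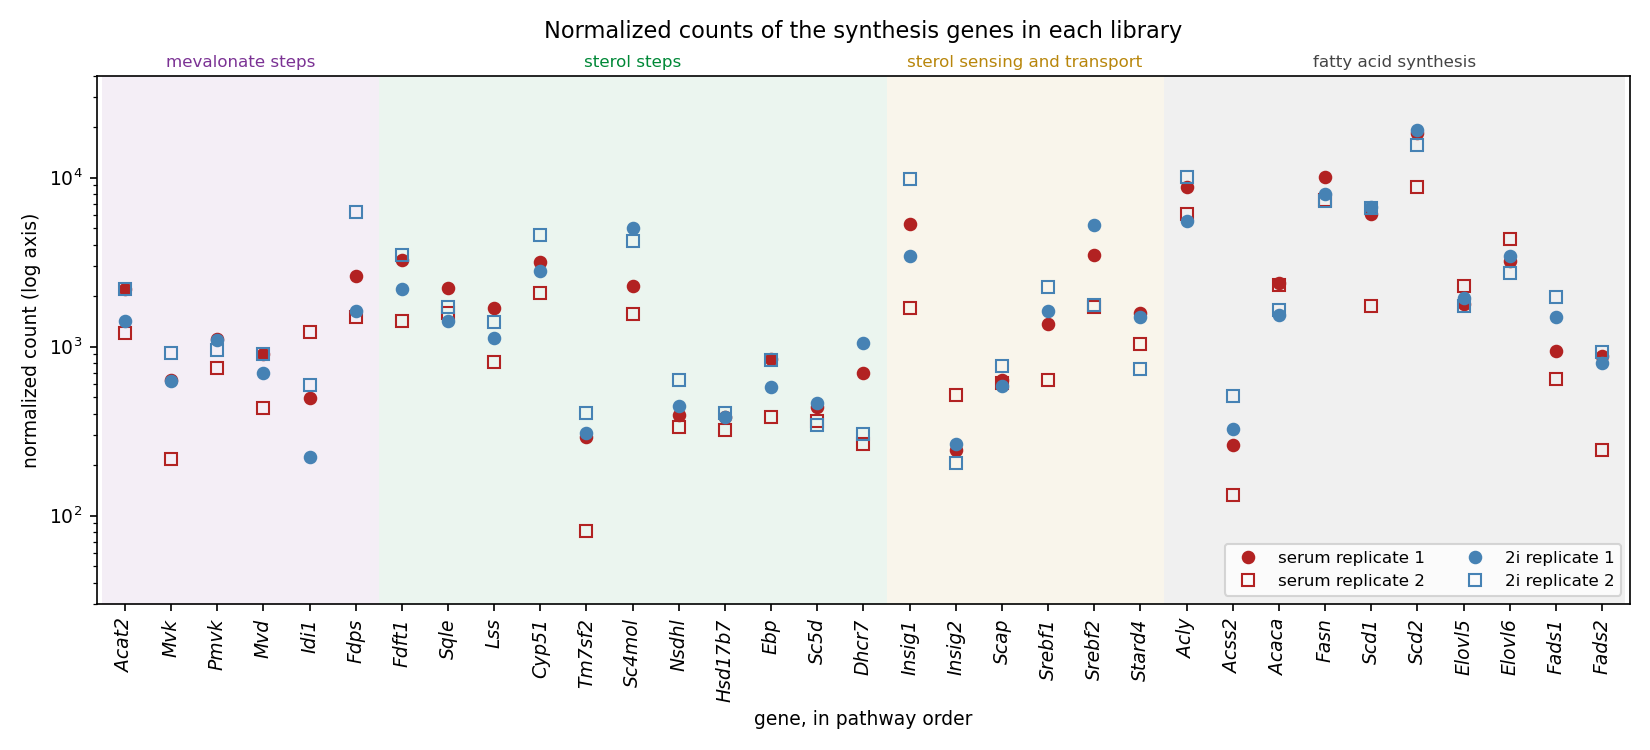
Normalized counts of the 33 synthesis genes on a log axis, in pathway order, with serum libraries in red, 2i libraries in blue, replicate 1 as filled circles and replicate 2 as open squares. The open red squares of serum replicate 2 are the lowest of the 4 points for 22 of 33 genes.

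Serum replicate 2 stood apart for these genes, as it did for several of the other lipid lists below. It was below serum replicate 1 for 29 of 33 members (87.9%), where it was below for 47.3% of all genes tested. The level in serum replicate 2 was over 2-fold lower than in serum replicate 1 for 13 members (39.4%, against 14.3% of all genes tested). Out of the 4 libraries it was the lowest for 22 members (66.7%, against 27.8%), whereas serum replicate 1 was the lowest for 0 (2009 of the 13005 genes tested). The median log2 difference of serum replicate 2 from serum replicate 1 was -0.61, against 0.05 over all genes tested, while the 2i replicates differed by a median of 0.31, 2i replicate 2 being the higher. For 27 of 33 members the serum libraries lay further apart than the means of the conditions. Single libraries vary more than means of 2 libraries, and the share of all genes for which this holds was not counted. The count by itself therefore does not set the members apart from other genes. As median absolute log2 differences over the members, the serum libraries were 0.88 apart and the condition means 0.39. Over all genes tested these medians were 0.53 and 0.55.

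Taken library by library, serum replicate 1 was close to both 2i libraries in the median over the members. Its median log2 difference was 0.02 from 2i replicate 1 and -0.06 from 2i replicate 2, against 0.012 and -0.0068 over all genes tested. Single members lay further off, such as Sc4mol (-1.13) and Idi1 (1.14) from 2i replicate 1, and Fdps (-1.26) and Dhcr7 (1.20) from 2i replicate 2. Serum replicate 2 lay at medians of -0.53 and -0.82 from the same libraries, against 0.027 and 0.0 over all genes tested. Per 1000000 protein-coding reads, the 33 genes took 7128 in serum replicate 1 and 3885 in serum replicate 2, beside 6381 and 7202 in 2i replicates 1 and 2. The difference between the serum libraries was thus present when noncoding reads were set aside. It was present after other scalings too, which were added after the data had been seen: serum replicate 2 was the lowest library for 24 members after correction for GC content and length, for 26 after quantile normalization and for 25 per 1000000 protein-coding reads, against 29.6%, 20.6% and 32.2% of all genes under each.

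**Figure D2:**
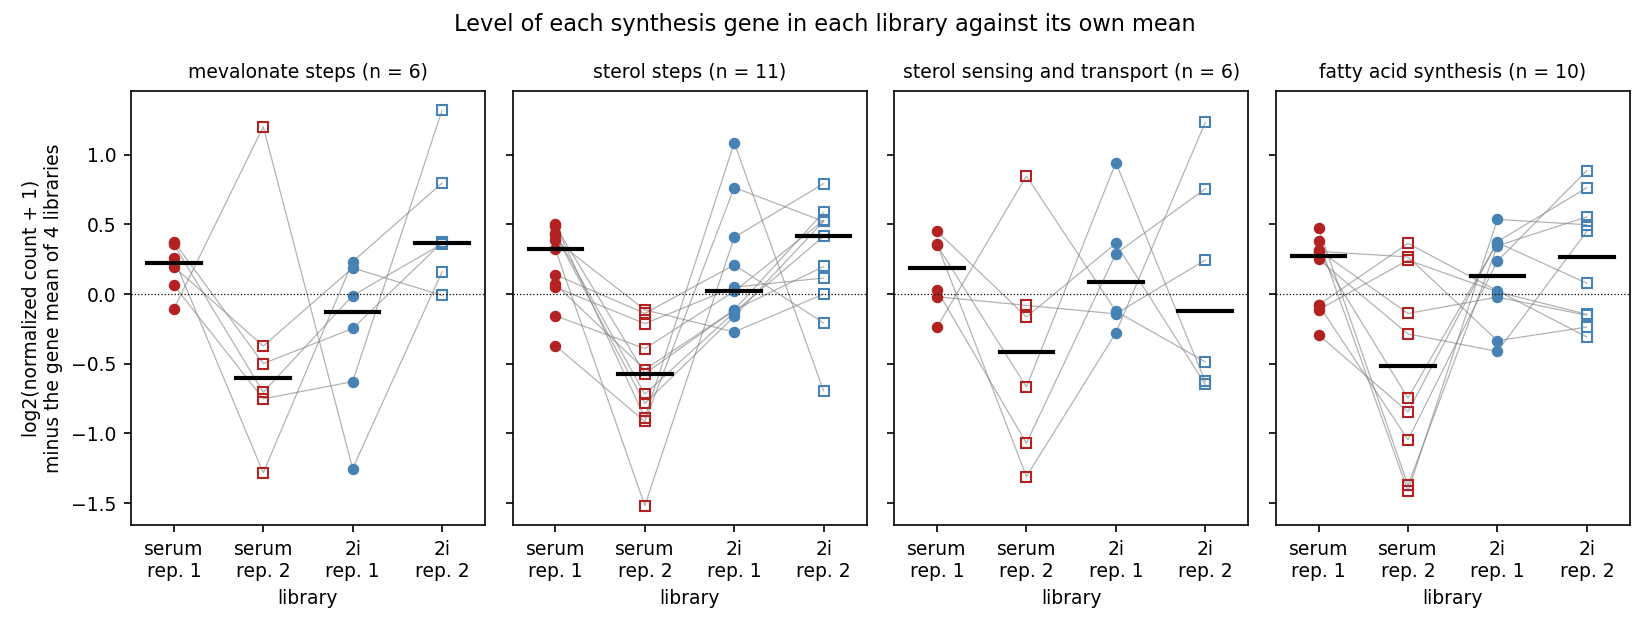
Deviation of each gene in each library from its own mean over the 4 libraries, in log2(normalized count + 1), for the 4 groups of genes; grey lines join a gene across libraries and black bars are medians. The medians of serum replicate 2 lie at -0.60, -0.57, -0.41 and -0.52 from left to right, below the other libraries in every panel.

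The early enzymes that lead from acetyl-CoA to farnesyl diphosphate had a median log2 fold change of -0.26, with 5 of 6 below 0, which was 0.011 without 2i replicate 2 and -0.084 with GC content and length corrected. Mevalonate kinase, Mvk (promoter above), had normalized counts of 632 and 217 in serum against 622 and 920 in 2i. Serum replicate 2 was thus far below the other 3 libraries, and serum replicate 1 lay among the 2i libraries. Its log2 fold change was -1.03 with an SE of 0.62. The acetoacetyl-CoA thiolase Acat2 (2192 and 1194 in serum, 1422 and 2182 in 2i) and the decarboxylase Mvd (901 and 431 in serum, 698 and 903 in 2i) also had serum replicate 2 as the lowest library. Phosphomevalonate kinase, Pmvk, ranged from 744 in serum replicate 2 to 1104 in serum replicate 1, with both 2i libraries in between.

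Fdps, the farnesyl diphosphate synthase, was at 2623 and 1491 in serum against 1624 and 6264 in 2i. Its 2i libraries lay further apart than any pair from different conditions except serum replicate 2 and 2i replicate 2. Idi1, which interconverts the isoprenoid building blocks, went the other way, with 494 and 1225 in serum against 223 and 595 in 2i, and a log2 fold change of 1.09 (SE 0.68), the largest in favour of serum. For 3 of these enzymes the counts could include reads of other genes: the share of 43-base words, the read length, that occur in no other gene was 15.9% for Idi1, 41.6% for Fdps and 58.8% for Acat2. The same share was 60.4% for Fdft1, and at least 80% for the other 29 members. Over those 29 the median was again -0.32 and serum replicate 2 was the lowest library for 19 (65.5%).

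The sterol steps, from squalene to cholesterol, had a median of -0.36, with 10 of 11 below 0, and serum replicate 2 was below serum replicate 1 in all 11. Sc4mol (Msmo1 in newer annotation, mm9 chr8:67196936-67212589, minus strand) is the oxidase that starts removal of the methyl groups left after the Cyp51 step. Sc4mol showed the largest log2 fold change among the 33 genes. It stood at 2278 and 1562 in serum and at 5002 and 4227 in 2i. Both 2i libraries were above both serum libraries and the gap between conditions was wider than either gap between replicates. The log2 fold change was -1.29 (SE 0.46), a 2.44-fold higher level in 2i, with an unadjusted p-value of 0.0293 and a Benjamini-Hochberg adjusted p-value of 0.753 by limma and of 0.0989 by DESeq2. Without serum replicate 2 the log2 fold change was -1.01.

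Tm7sf2, a sterol reductase, had 291 and 80.7 in serum against 309 and 404 in 2i. Here the libraries did not overlap either, but serum replicate 1 nearly reached 2i replicate 1 and the log2 fold change of -1.20 had an SE of 0.71 and was -0.28 without serum replicate 2. Nsdhl, the dehydrogenase that follows Sc4mol, was at 392 and 333 in serum against 443 and 631 in 2i, again without overlap. Its partner in the same demethylation, Hsd17b7, was between 321 and 403 in all 4 libraries.

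The remaining sterol enzymes overlapped between the conditions. Squalene synthase, Fdft1, was at 3267 and 1413 in serum against 2179 and 3499 in 2i. Lanosterol synthase, Lss, was at 1700 and 815 in serum against 1118 and 1389 in 2i. Ebp, a sterol isomerase, was at 849 and 381 in serum against 573 and 836 in 2i. In these 3 genes serum replicate 2 was the lowest library by a wide margin and serum replicate 1 was near the highest. The lanosterol demethylase Cyp51 followed with 3183 and 2082 in serum against 2801 and 4554 in 2i. Squalene epoxidase, Sqle, was the 1 sterol step with a positive log2 fold change, 0.27 (SE 0.44), from 2226 and 1574 in serum against 1410 and 1703 in 2i. The desaturase Sc5d lay between 345 and 461 in all libraries. Dhcr7, the last reductase of the route, split by replicate number instead of condition, with 697 and 1047 in replicate 1 of serum and 2i and 266 and 304 in replicate 2.

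Sensing and transport genes had a median of -0.21, with 4 of 6 below 0, which was 0.088 without 2i replicate 1. Insig1, which retains SCAP and SREBP in the endoplasmic reticulum and is itself a target of SREBP, was at 5340 and 1680 in serum against 3433 and 9783 in 2i. Its libraries overlapped, since serum replicate 1 exceeded 2i replicate 1, and the log2 fold change of -0.95 had the largest SE of the 33 genes, 0.77. The homologue Insig2 had the reverse order in serum, 244 and 518, with 264 and 205 in 2i. So the library that was lowest for Insig1 was the highest for Insig2.

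Srebf1, the gene of SREBP-1, was at 1359 and 635 in serum against 1630 and 2251 in 2i, with no overlap and a log2 fold change of -1.04 (SE 0.53, limma unadjusted p-value 0.0936), which was -0.50 without serum replicate 2. Srebf2, the gene of SREBP-2, the form that mainly drives sterol synthesis, split by replicate number like Dhcr7, with 3478 and 5244 in replicate 1 of serum and 2i and 1718 and 1765 in replicate 2. Scap, the escort of SREBP, was between 583 and 762 in all libraries. The sterol carrier Stard4 ranged from 738 in 2i replicate 2 to 1581 in serum replicate 1, and the condition means gave a log2 fold change of 0.29 (SE 0.53), and correcting for GC content and length moved it to -0.15.

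Fatty acid genes had a median of -0.24, with 6 of 10 below 0, which was -0.090 after quantile normalization. The core enzymes Acly and fatty acid synthase, Fasn, had log2 fold changes of -0.04 (SE 0.55) and 0.17 (SE 0.50). Fasn was at 10042 and 7328 in serum against 7951 and 7263 in 2i, and Acly was at 8755 and 6043 in serum against 5539 and 10068 in 2i. In both genes the serum libraries lay inside or across the range of the 2i libraries. Acetyl-CoA carboxylase, Acaca, which makes the malonyl-CoA for both synthesis and elongation, was at 2382 and 2316 in serum against 1527 and 1634 in 2i. Replicates of Acaca were close and did not overlap between the conditions, and the log2 fold change of 0.57 (SE 0.42) was a 1.49-fold higher level in serum that did not pass the test (limma unadjusted p-value 0.218). This SE draws on the spread of other genes as well as on the replicates of Acaca. Acss2, which makes acetyl-CoA from acetate, was in the other direction with 261 and 133 in serum against 325 and 510 in 2i, a log2 fold change of -1.12 (SE 0.56) that was -0.64 without serum replicate 2.

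Among the desaturases, Fads1 (mm9 chr19:10257378-10271360, plus strand), which makes polyunsaturated fatty acids from dietary precursors, was at 942 and 642 in serum against 1498 and 1959 in 2i. Both 2i libraries exceeded both serum libraries, with a log2 fold change of -1.14 (SE 0.45), a 2.2-fold higher level in 2i, an unadjusted limma p-value of 0.0434 and a Benjamini-Hochberg adjusted p-value of 0.753. Without serum replicate 2 it was -0.86. Fads2, which acts before Fads1, was at 876 and 243 in serum against 802 and 926 in 2i. There serum replicate 1 was within the range of the 2i libraries and serum replicate 2 alone was low. The more abundant Scd2 had the same pattern, with 18250 and 8835 in serum against 19147 and 15636 in 2i. Scd1 was at 6060 and 1741 in serum against 6732 and 6556 in 2i, so serum replicate 1 was just below both 2i libraries and serum replicate 2 far below them, and without serum replicate 2 its log2 fold change went from -1.03 to -0.13. The elongases Elovl5 (1775 and 2272 in serum, 1940 and 1735 in 2i) and Elovl6 (3192 and 4334 in serum, 3422 and 2721 in 2i) were highest in serum replicate 2, opposite to the desaturases.

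Members higher in serum replicate 2 than in serum replicate 1 were therefore 4 of 33, namely Idi1, Insig2, Elovl5 and Elovl6.

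**Figure D3:**
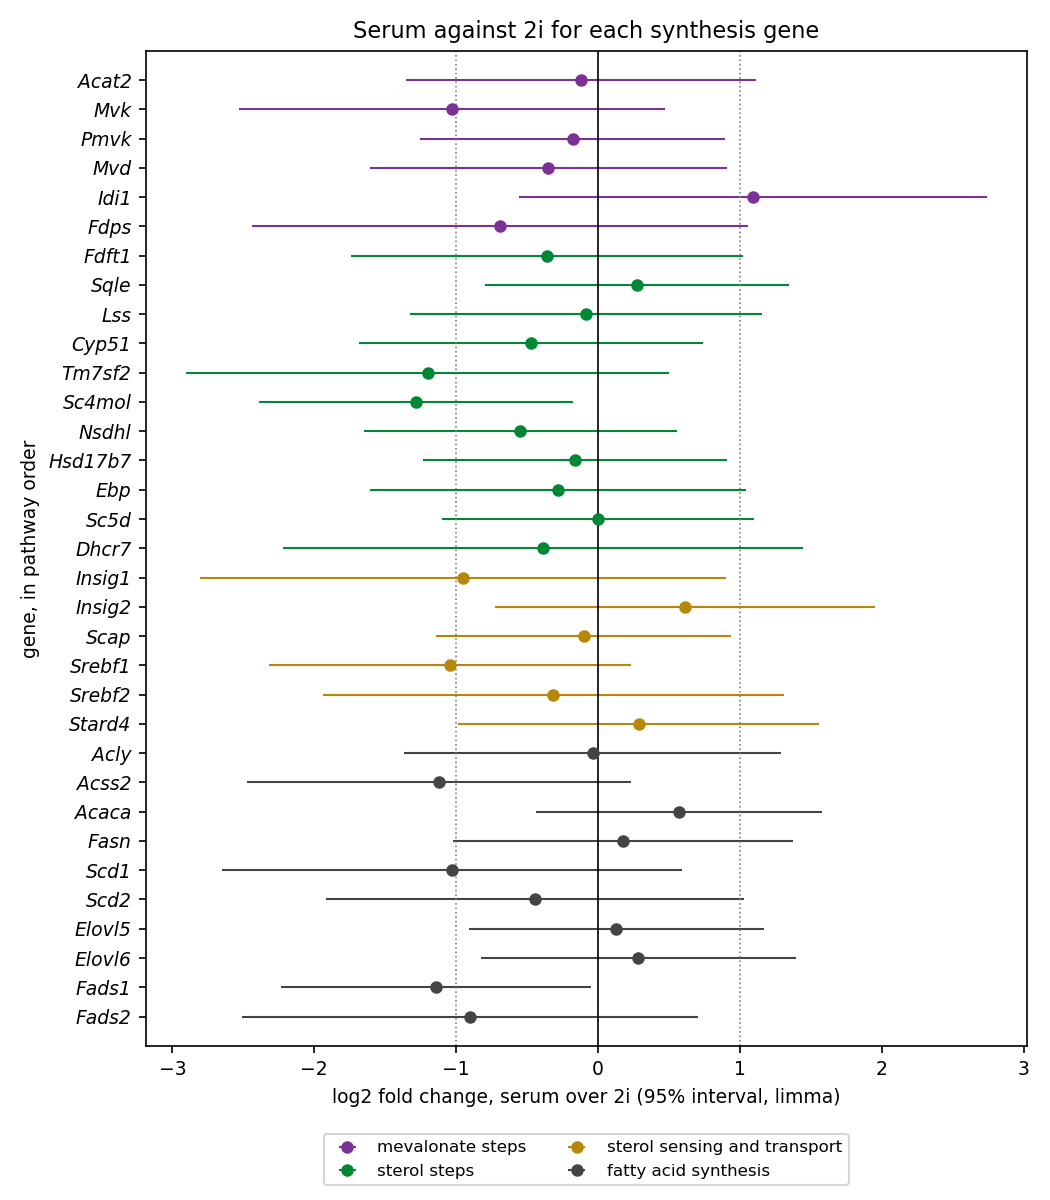
Log2 fold change of serum over 2i for each of the 33 genes with its 95% interval from limma, coloured by group; dotted lines mark a 2-fold change. The intervals of Sc4mol and Fads1 lie below 0 and the other 31 intervals include 0.

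Other lipid genes, from 8 lists fixed alongside the members, were measured in the same fit. There were 83 of 92 in the table, 79 of them tested, with a median of -0.33 and 54 of 79 below 0. None was called by limma after Benjamini-Hochberg adjustment. At an unadjusted p-value under 0.05 with a 2-fold change, 6 were higher in 2i and 1 was higher in serum, where 3% and 2.97% of all genes were. Both serum libraries lay below both 2i libraries for 32 of 79 and above them for 7, where 19.4% and 20.5% of all genes did. Serum replicate 2 was the lowest library for 34 of 79 (43%), against 66.7% of the members and 27.8% of all genes tested. By list, it was the lowest for 7 of 11 uptake genes, 4 of 5 efflux and LXR target genes and 5 of 8 storage genes. The same held for 11 of 20 other fatty acid genes, 6 of 17 oxidation genes, 1 of 8 other sterol genes and 0 of 10 SREBP processing genes.

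Lipid uptake and lysosomal release had a median of -1.26 over 11 genes, with 10 below 0 and no overlap for 6, all higher in 2i. Serum replicate 1 by itself was also lower here, at median log2 differences of -1.06 and -0.81 from 2i replicates 1 and 2. Fabp3, which binds fatty acids in the cytosol, was at 265 and 188 in serum against 2612 and 2113 in 2i. Every 2i library was several times above every serum library. Its log2 fold change of -3.39 (SE 0.45) had an unadjusted p-value of 0.000198 and a Benjamini-Hochberg adjusted p-value of 0.299 by limma and of 1.8e-10 by DESeq2. The related Fabp5 was at 239 and 135 in serum against 652 and 648 in 2i. Scarb1, a receptor for high-density lipoprotein, was at 335 and 288 in serum against 1028 and 870 in 2i. All 3 had both serum libraries clear of both 2i libraries, and DESeq2 gave Scarb1 an adjusted p-value of 0.015.

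Sterol efflux and LXR target genes had a median of -1.40 over 5 genes, with 3 higher in 2i without overlap, and serum replicate 1 lay at -0.59 and -1.05 from the 2i libraries. The median of this short list was -0.86 with the filter at a mean of 200, -1.03 after quantile normalization and -0.82 without serum replicate 2. LXR factors are activated by oxysterols and induce export of cholesterol. Nr1h2, the gene of an LXR factor itself, was the highest of the list at 0.13 (SE 0.47). It was among the 2 genes of the list whose libraries overlapped. Abcg1, a cholesterol exporter, was at 272 and 101 in serum against 411 and 564 in 2i, and the lysophospholipid acyltransferase Lpcat3 was at 653 and 390 in serum against 1093 and 1691 in 2i. Oxysterol-forming enzymes had 0 genes that passed the filter, with 2 of 4 in the table. Fatty acid oxidation had a median of -0.53 over 17 genes (-0.33 without 2i replicate 2), 15 of them below 0 and 7 higher in 2i without overlap, among them Echs1, the hydratase of the mitochondrial cycle, at 866 and 573 in serum against 2588 and 1914 in 2i, with a DESeq2 adjusted p-value of 0.0362. Storage genes had a median of -0.72 over 8 genes (-0.41 without 2i replicate 1 and -0.42 after quantile normalization), 4 of them higher in 2i without overlap, and Mgll, a monoglyceride lipase, was lowest at -2.16 (SE 1.28) from low counts.

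Genes that process SREBP or degrade sterol-regulated proteins had a median of 0.22 over 10 genes with 1 below 0, but correcting for GC content and length moved it to -0.011. Rnf145, a ubiquitin ligase of the endoplasmic reticulum, was at 944 and 1537 in serum against 435 and 433 in 2i, a log2 fold change of 1.47 (SE 0.46, limma unadjusted p-value 0.017). Other genes of sterol and isoprenoid synthesis had a median of 0.19 over 8 genes, 2 of them higher in serum without overlap. That median was 0.049 without serum replicate 1 and 0.074 with upper quartile scaling. In this list Pdss1, for the side chain of ubiquinone, was highest at 1.06 (SE 0.52). Other fatty acid and glycerolipid genes had a median of -0.54 over 20 genes (-0.33 with the filter at a mean of 200), 11 higher in 2i and 2 higher in serum without overlap, from Thrsp at -2.00 (SE 0.85) to the dehydratase Ptplb at 1.08 (SE 0.50).

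**Figure D4:**
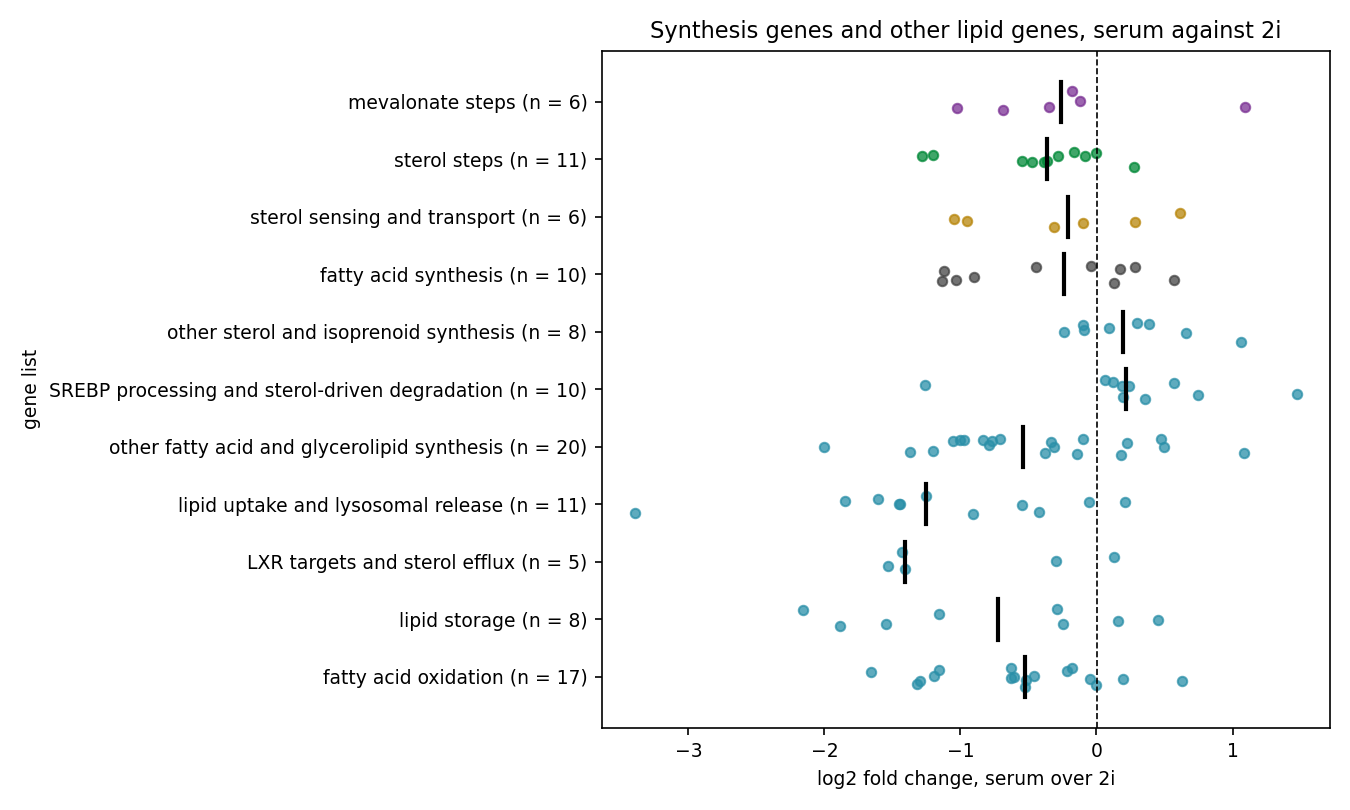
Log2 fold change of serum over 2i for the 4 groups of synthesis genes and for the other lipid lists with genes tested; each point is a gene, black bars are list medians and the dashed line is the median of all genes tested, 0.0047. The 4 groups of synthesis genes have medians from -0.36 to -0.21, and the lists for uptake and for LXR targets have medians of -1.26 and -1.40, each closer to 0 without serum replicate 2.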

How the data were processed

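Per the labels and the study's methods, cells were sorted by fluorescent cell cycle reporters, ribosomal RNA was removed, and fragments primed at random were sequenced as 43-base single-end reads. The authors aligned reads to mm9 with Bowtie, estimated expression with MMSeq, which divides reads that fit several transcripts, and scaled gene counts with DESeq2. The deposited values are thus a scaled signal (called normalized counts), in which every library's counts were divided by its own size factor. In all 4 libraries 100% of values were whole multiples of 1 step, within 0.01, so whole numbers were recovered and used as whole reads for the count tests. They may be rounded estimates, since MMSeq divides reads. The step of serum replicate 1 was 1.0005, so its values cannot be told from unscaled counts. Because reads that fit several transcripts were divided, genes with near-identical copies have uncertain values.

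GENCODE vM1 supplied names and positions for 14462 of 14533 genes. The test was limma 3.58.1 in R 4.3.3, run on log2(normalized count + 1) for the 13005 genes that reached a mean of 50 in serum or 2i, with a variance trend and Benjamini-Hochberg adjustment over all genes tested. A call needed an adjusted p-value under 0.05 and a log2 fold change beyond 1. The study used DESeq2 on counts, and here edgeR 4.0.16 and DESeq2 1.42.0 were run on whole reads as alternatives. With 2 libraries against 2, an exact permutation test has 3 splits and a smallest two-sided p-value of 0.333, so none was run. The precision is set by the spread between libraries, since the lowest normalized count of a member was 80.7. The members and lists were chosen with earlier results of these data known. Every member could be named, and other genes only from the lists, where they passed an unadjusted p-value of 0.05 with a 2-fold change, were called, or were highest or lowest of their list. The fit was tested on simulated data with a spread that was set and not taken from these libraries. That test checked the fitting steps and does not show how well changes are found in these 4 libraries. Alternatives were pseudocounts of 0.5 and 5, no filter, a mean of at least 200, TMM, quantile and upper quartile scaling, a replicate block, each library left out in turn, no trend, protein-coding genes alone, and a correction for GC content and length (mgcv 1.9.3). Genes with at least 80% of words of their own and the scalings of the serum libraries were added after the data had been seen.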

Additional observations from a re-analysis of the deposited data

How the results depend on the processing

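No synthesis gene was called under any alternative run. Of all genes, limma called 0 as higher in serum and 2 as higher in 2i, DESeq2 on whole reads called 73 and 178, and the fit with a replicate block called 44 and 159. With both the replicate block and the GC and length correction the counts were 2 and 7. Genes higher in 2i numbered 1 after GC and length correction alone, 1 without trend, 4 at a mean of at least 200, 0 with edgeR, 0 among protein-coding genes alone, and 0 to 0 with any library left out. Among the other lipid genes DESeq2 called 3 and the replicate block 1, all higher in 2i; the 1 was Fabp3, at a limma adjusted p-value of 0.00013, and with the GC and length correction as well the replicate block called 0. Whether replicate numbers mark paired samples is not known; across genes the differences between replicates correlated at 0.48 between the conditions and at 0.40 after GC and length correction. Upper quartile scaling moved the median of all genes by -0.12, and the filter at 200 by 0.12.

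Leaving out 1 library, the median over the 33 genes ran from -0.78 to 0.071 and that over the sterol steps from -0.78 to 0.14, in each case without serum replicate 1 and without serum replicate 2. Single genes changed sign after GC and length correction, with and without the block, where Pmvk was 0.21, Scap 0.00175, Stard4 -0.15, Elovl5 -0.11 and Elovl6 -0.16. After quantile normalization Sc5d was 0.021 and Elovl5 -0.053. The cause of these changes was not tested. With a library left out, the ranges of log2 fold changes that crossed 0 were Acat2 -0.56 to 0.32, Pmvk -0.46 to 0.11, Mvd -0.88 to 0.18, Fdps -1.66 to 0.28, Fdft1 -0.97 to 0.24, Lss -0.61 to 0.45, Ebp -0.86 to 0.29, Sc5d -0.21 to 0.21, Dhcr7 -1.28 to 0.50, Scap -0.29 to 0.092, Srebf2 -1.10 to 0.47, Stard4 -0.22 to 0.79, Acly -0.47 to 0.39, Fasn -0.052 to 0.40, Scd2 -0.97 to 0.077, Elovl5 -0.048 to 0.31 and Fads2 -1.82 to 0.024.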
